A study of Mus musculus with 8 samples.

Results

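The genes described here decide whether a cell that has finished dividing starts another round of DNA replication. They are the D-type cyclin genes Ccnd1, Ccnd2 and Ccnd3, the E-type cyclin genes Ccne1 and Ccne2, the transcription factor gene E2f1, the kinase gene Cdk2 and the inhibitor genes Cdkn1a, Cdkn1b and Cdkn1c. These 10 genes were taken by symbol from a table of 24918 gene rows. Each had a single row, and all 10 had a mean log2 value of at least 3, the minimum used for testing, which 14715 rows of the table met.

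RNA was sequenced from whole corneas of male wild-type C57BL/6J mice. One set of 4 libraries came from mice given dexamethasone, a synthetic glucocorticoid, as eye drops, and another set of 4 from mice given vehicle drops, both for 6 h. All mice, vehicle mice included, had lost their adrenal glands at 8 weeks of age, about 4 weeks before the drops, so none had adrenal glucocorticoid of its own. Each library was a pool of 4 to 6 corneas, so it averages several eyes and holds every corneal layer. The labels do not say how many mice each pool came from.

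In the textbook view, growth signals raise D-type cyclins, which activate CDK4 and CDK6 and start the phosphorylation of the retinoblastoma protein and its relatives. Released E2F factors then transcribe the E-type cyclins, more E2F1 and the genes of the replication machinery, and cyclin E with CDK2 completes entry into S phase. The CIP/KIP inhibitors p21, p27 and p57, encoded by Cdkn1a, Cdkn1b and Cdkn1c, bind cyclin-CDK complexes and hold cells in G1. In the cornea, division is found mainly in the basal epithelium and the limbus, whereas the endothelium rests in G1.

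Promoter sequence is shown for the genes whose starts hold letters known as binding motifs of this pathway. RefSeq promoter entries (GRCm38.p6; 250 bases before to 50 after the start) were found for 6 of the 10 genes. No entry was matched for Ccnd1, Ccnd2, Ccne2 and Cdkn1c. The E2F motif searched was the heptamer TTGGCGC with its variant forms, which were TTCCCGC as the next form, then TTGCCGC as a further form, and finally the form TTCGCGC. Both strands were read, and overlapping copies were counted once. Only these exact letters were searched, and only in that window. The lack of a match, as for E2f1 and Ccne1, therefore does not show that a gene lacks E2F sites. Of the 6 genes only Cdk2 held a match. Of the replication genes that E2F is known to control, 25 of the 37 with an entry did (67.6%), against 10.9% of all 27025 genes with one. Mcm5 and Hells are shown as the called genes of that list with the largest falls among those with a match before the RefSeq start. In the annotation read for coordinates, Hells starts at mm9 chr19:39005405, so both of its matches lie after that start. For Cdkn1a the search was for 2 copies of CATG set 6 bases apart, the core letters of paired p53 half-sites, and it was made after the sequence was seen. Of all genes with an entry 0.833% held that spacing, and 0 of the 16 listed p53 target genes with an entry did. The match lay in 1 of the 2 promoters of Cdkn1a. The capitals below mark the matches. On mm9 (NCBIM37), the lines lie at chr10:128142108-128142282 (minus strand), chr17:29227841-29227923 (plus), chr8:77633209-77633297 (plus) and chr19:39005384-39005478 (plus).
Cdk2: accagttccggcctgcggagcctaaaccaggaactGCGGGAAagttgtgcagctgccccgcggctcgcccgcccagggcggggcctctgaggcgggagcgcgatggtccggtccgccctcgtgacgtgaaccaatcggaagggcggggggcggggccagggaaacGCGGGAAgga
Cdkn1a: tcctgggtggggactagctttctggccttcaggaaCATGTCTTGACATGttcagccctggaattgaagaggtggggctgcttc
Mcm5: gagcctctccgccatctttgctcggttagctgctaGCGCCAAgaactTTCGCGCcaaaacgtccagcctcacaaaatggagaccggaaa
Hells: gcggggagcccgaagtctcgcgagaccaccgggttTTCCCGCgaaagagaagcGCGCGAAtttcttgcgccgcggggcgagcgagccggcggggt
A match describes these letters and is not evidence of binding in the cornea.

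After dexamethasone, 6 of the 10 genes fell (Ccnd1, Ccnd2, Ccne1, Ccne2, E2f1 and Cdk2), 2 rose (Ccnd3 and Cdkn1c), and Cdkn1a and Cdkn1b were not called. Genes were tested with limma over all 14715 rows and called at a Benjamini-Hochberg adjusted p below 0.05. By this rule 15.1% of all tested rows were called, 9.04% higher and 6.03% lower. The median log2 difference of the 10 genes was -0.16, against -0.0029 over all tested rows. The groups did not overlap in 8 of the 10 genes, 2 higher and 6 lower, against 20.7% of all tested rows (11.6% higher and 9.11% lower). The genes were chosen with earlier results of these data known, so these counts describe them and are not independent evidence. The deposited log2 values behave as shrunken values: the median SD within groups was 0.0213 over 812 rows with a mean of 2 to 3. Differences are therefore likely to be understated, most of all at low levels.

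**Figure D1:**
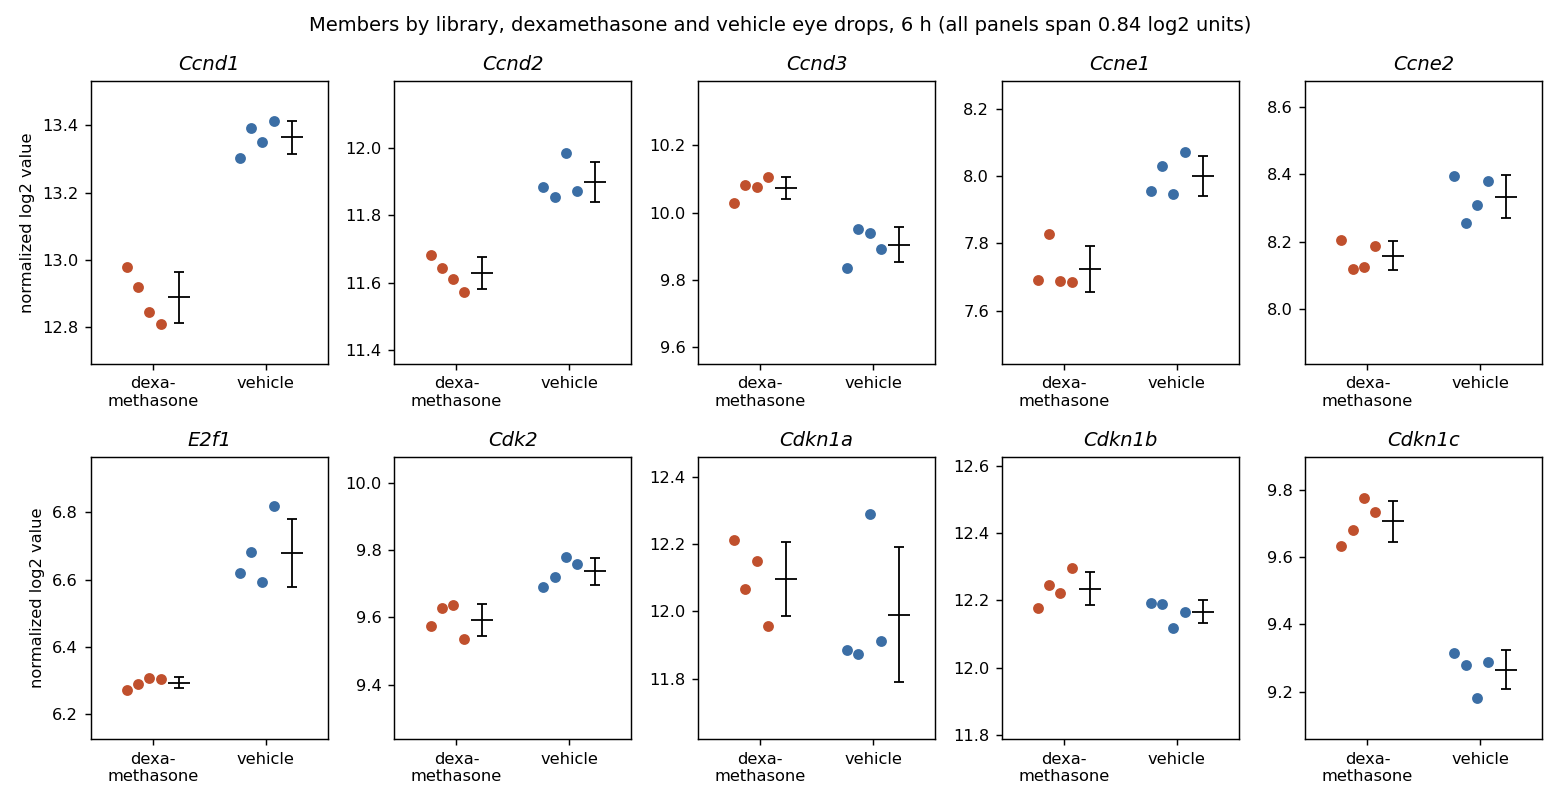
Normalized log2 value (y axis) of each of the 10 genes in the 4 dexamethasone libraries (left) and the 4 vehicle libraries (right); points are libraries, bars are the mean and SD, and all panels span the same number of log2 units. The groups separate in 8 panels and overlap in those of Cdkn1a and Cdkn1b.

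Some facts of the libraries bear on these values. The known glucocorticoid receptor targets Fkbp5, Tsc22d3 and Per1 were higher by 0.88, 0.59 and 0.42 log2 units after dexamethasone (adjusted p of 3.43e-06 to 2.86e-05, limma). Krt12, the corneal keratin gene, was 19.73 ± 0.06 after dexamethasone and 19.74 ± 0.02 after vehicle (SD, n = 4 each). Of 7 epithelial markers 1 fell (Krt5, -0.23), of 7 stromal markers 2 fell (Kera, -0.14, and Lum, -0.18), and the endothelial markers Slc4a11 (-0.21) and Cdh2 (-0.15) fell. Of 6 immune markers Lyz2 fell (-0.23) and of 5 vessel markers Tie1 rose (0.19), and none was called among 5 conjunctival and limbal, 4 Schwann cell, 4 lens, 4 pigment, 2 muscle and 3 wounded-epithelium markers. These markers were picked for naming once their values were known. The log2 of the summed level of the epithelial list ran from 20.65 to 20.80 in dexamethasone libraries and from 20.77 to 20.82 in vehicle libraries. That of the vessel list ran from 10.75 to 10.87 in dexamethasone libraries and from 10.63 to 10.73 in vehicle libraries, with no overlap. No listed marker stood at 0. Dexamethasone replicate 1 and vehicle replicate 3 stand apart from the rest in Krt16, a keratin of wounded epithelium. Krt16 was at 9.33 and 11.20 there, against 7.33 to 8.04 in the other 6. Krt6a was also highest in these libraries, at 16.67 and 16.80 against 16.37 to 16.56. For Krt6b vehicle replicate 3 was highest at 16.32. Dexamethasone replicate 1 did not stand apart in Krt6b, at 16.11 within its group's range of 16.06 to 16.21. In such whole-tissue RNA, fewer cells of a type and less RNA per cell cannot be told apart, and the part of these marker differences in the results was not tested.

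Among the D-type cyclins, Ccnd1 and Ccnd2 fell and Ccnd3 rose. Ccnd1 (Entrez 12443; mm9 chr7:152115836-152125774), the main D cyclin of many epithelia, stood at 12.98, 12.92, 12.85 and 12.81 in the dexamethasone libraries, and at 13.30, 13.39, 13.35 and 13.41 in the vehicle libraries. Every dexamethasone library lay at least 0.32 log2 units below the lowest vehicle library. Ccnd1 fell by 28.1%, a log2 difference of -0.48 (SE 0.04, 95% interval -0.56 to -0.39, adjusted p = 2.12e-05, limma). Its difference was the 24th from the lowest among the 14715 tested rows.

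Ccnd2 (Entrez 12444; mm9 chr6:127075797-127101066), which serves many of the same kinases, had log2 values of 11.68, 11.64, 11.61 and 11.57 in the dexamethasone libraries against 11.89, 11.85, 11.99 and 11.87 in the vehicle libraries. The groups did not overlap, and Ccnd2 fell by 17.1% (log2 difference -0.27, SE 0.04, adjusted p = 0.000461, limma). Ccnd3 (Entrez 12445; mm9 chr17:47642000-47736632) moved the other way. It stood at 10.03, 10.08, 10.08 and 10.11 in the dexamethasone libraries against 9.84, 9.95, 9.94 and 9.89 in the vehicle libraries. All 4 dexamethasone libraries were above all 4 vehicle libraries, a rise of 12.4% (log2 difference 0.17, SE 0.03, adjusted p = 0.00617, limma).

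The D cyclins were also compared with each other within each library, since a call for each gene does not test whether their responses differ. The log2 value of Ccnd1 less that of Ccnd3 averaged 2.81 ± 0.11 in dexamethasone libraries and 3.46 ± 0.05 in vehicle libraries (SD, n = 4 each), a shift of -0.64. For Ccnd2 less Ccnd3 it was 1.55 ± 0.08 in dexamethasone libraries and 1.99 ± 0.07 in vehicle libraries (SD, n = 4 each), a shift of -0.44. Ccnd1 less Ccnd2 averaged 1.26 ± 0.03 in dexamethasone libraries and 1.46 ± 0.09 in vehicle libraries (SD, n = 4 each), a shift of -0.20. The groups did not overlap in any of these 3 pairs. Each had an exact two-sided permutation p = 0.0286, the smallest that 4 against 4 libraries allow. Adjusted over the 7 pairs of related genes compared here it was 0.05, which is not below the threshold.

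Both E-type cyclins, which activate CDK2 at entry into S phase, fell. Ccne1 (Entrez 12447; mm9 chr7:38883003-38892553) had log2 values of 7.69, 7.83, 7.69 and 7.69 in the dexamethasone libraries against 7.96, 8.03, 7.95 and 8.07 in the vehicle libraries. Dexamethasone replicate 2 lay above the other 3 of its group but still below every vehicle library. Ccne1 fell by 17.5% (log2 difference -0.28, SE 0.04, adjusted p = 0.00171, limma). Ccne2 (Entrez 12448; mm9 chr4:11118498-11131926) stood at 8.20, 8.12, 8.13 and 8.19 in the dexamethasone libraries against 8.39, 8.26, 8.31 and 8.38 in the vehicle libraries. Its groups were separated by 0.051 log2 units, with a fall of 11.5% (log2 difference -0.18, SE 0.04, adjusted p = 0.0137, limma). The log2 value of Ccne1 less that of Ccne2 shifted by -0.10 between the groups (interval of the shift by inverted exact permutation -0.29 to 0.14, adjusted p = 0.267, exact permutation test). The comparison therefore leaves room for a difference in either direction.

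E2f1 (Entrez 13555; mm9 chr2:154385143-154395628) encodes an E2F activator that induces its own gene and the E-type cyclins. Its log2 values were 6.27, 6.29, 6.31 and 6.31 in the dexamethasone libraries, which lay close together, against 6.62, 6.68, 6.59 and 6.82 in the vehicle libraries. The groups were 0.29 log2 units apart. E2f1 fell by 23.4% (log2 difference -0.38, SE 0.05, 95% interval -0.49 to -0.28, adjusted p = 0.000244, limma). Cdk2 (Entrez 12566; mm9 chr10:128134995-128142107), the kinase partner of the E-type cyclins, had 9.58, 9.63, 9.64 and 9.53 in the dexamethasone libraries against 9.69, 9.72, 9.78 and 9.76 in the vehicle libraries. No dexamethasone library reached the lowest vehicle library. It fell by 9.51% (log2 difference -0.14, SE 0.03, adjusted p = 0.0156, limma), a call that was lost without vehicle replicate 4 (adjusted p = 0.054) and without both libraries that stand apart (adjusted p = 0.0565).

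**Figure D2:**
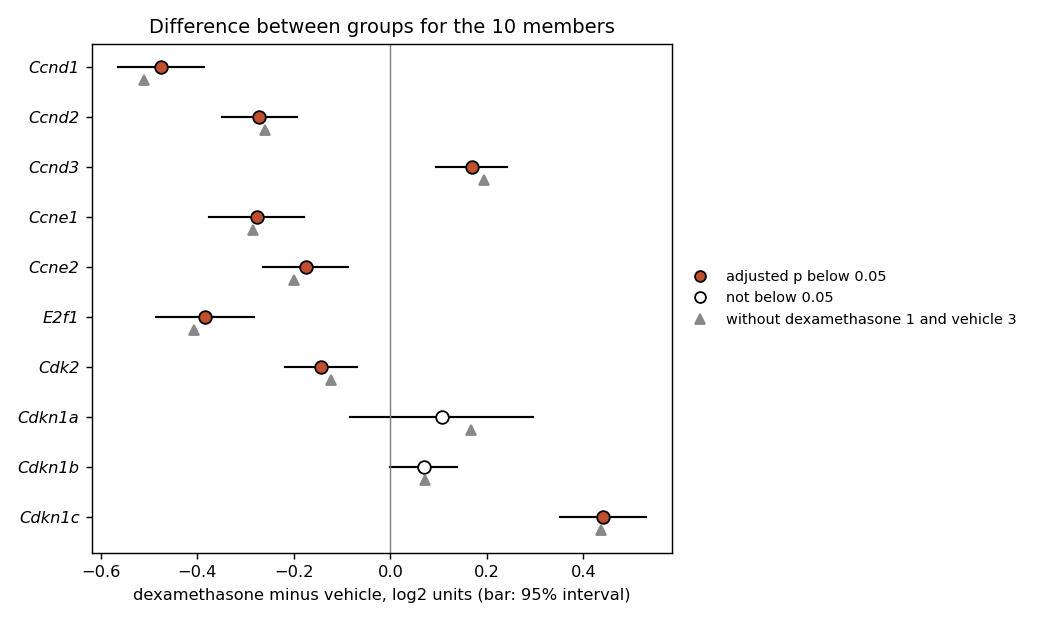
Dexamethasone minus vehicle difference in log2 units (x axis) for the 10 genes (rows); circles are the limma estimates with 95% intervals, filled where the adjusted p is below 0.05, and triangles are the estimates without dexamethasone replicate 1 and vehicle replicate 3. Ccnd1 lies lowest at -0.48 and Cdkn1c highest at 0.44.

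Of the CIP/KIP inhibitors, Cdkn1c rose and the other two were not called. Cdkn1c (Entrez 12577; mm9 chr7:150644255-150646955) encodes p57 and is imprinted, with expression mainly from the maternal allele. It had log2 values of 9.63, 9.68, 9.78 and 9.73 in the dexamethasone libraries against 9.31, 9.28, 9.18 and 9.29 in the vehicle libraries. The lowest dexamethasone library was 0.32 log2 units above the highest vehicle library. Cdkn1c rose by 35.7% (log2 difference 0.44, SE 0.04, 95% interval 0.35 to 0.53, adjusted p = 3.91e-05, limma), the 98th highest difference of the 14715 tested rows.

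Cdkn1b (Entrez 12576; mm9 chr6:134870419-134875531), which encodes p27, had log2 values of 12.18, 12.25, 12.22 and 12.30 in the dexamethasone libraries against 12.19, 12.19, 12.12 and 12.16 in the vehicle libraries. Dexamethasone replicate 1 lay within the vehicle range and the other 3 lay above it. The log2 difference was 0.07 (SE 0.03, 95% interval -0.00024 to 0.14, adjusted p = 0.169, limma). The log2 value of Cdkn1b less that of Cdkn1c averaged 2.53 ± 0.06 in dexamethasone libraries and 2.90 ± 0.03 in vehicle libraries (SD, n = 4 each). That shift of -0.37 had no overlap between the groups (exact permutation p = 0.0286, adjusted p = 0.05 over the 7 pairs, not below the threshold).

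Cdkn1a (Entrez 12575; mm9 chr17:29227924-29237667), which encodes p21 and is the classical p53 target among cell cycle inhibitors, had 12.21, 12.07, 12.15 and 11.96 in the dexamethasone libraries against 11.89, 11.87, 12.29 and 11.91 in the vehicle libraries. Vehicle replicate 3 was the highest of all 8 libraries, and the other 3 vehicle libraries lay below every dexamethasone library. Over all 8 libraries the log2 difference was 0.11 (SE 0.09, 95% interval -0.083 to 0.30, adjusted p = 0.447, limma). Cdkn1a was called in 2 of the 18 alternatives, both of them without vehicle replicate 3, its highest library. In the other 16 it was not called, with an adjusted p up to 0.695 (limma). Without vehicle replicate 3 alone the log2 difference was 0.21 (adjusted p = 0.0177, limma). Without both vehicle replicate 3 and dexamethasone replicate 1 it was 0.17 (adjusted p = 0.024, limma), with dexamethasone libraries at 11.96 to 12.15 and vehicle libraries at 11.87 to 11.91. The same 2 libraries had the highest Krt16 values, as given above, and the part of that difference in Cdkn1a was not tested. Cdkn1a less Cdkn1b shifted by 0.04 (interval -0.51 to 0.35, adjusted p = 0.8, exact permutation test) and Cdkn1a less Cdkn1c by -0.33 (interval -0.88 to 0.00, adjusted p = 0.08, exact permutation test).

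**Figure D3:**
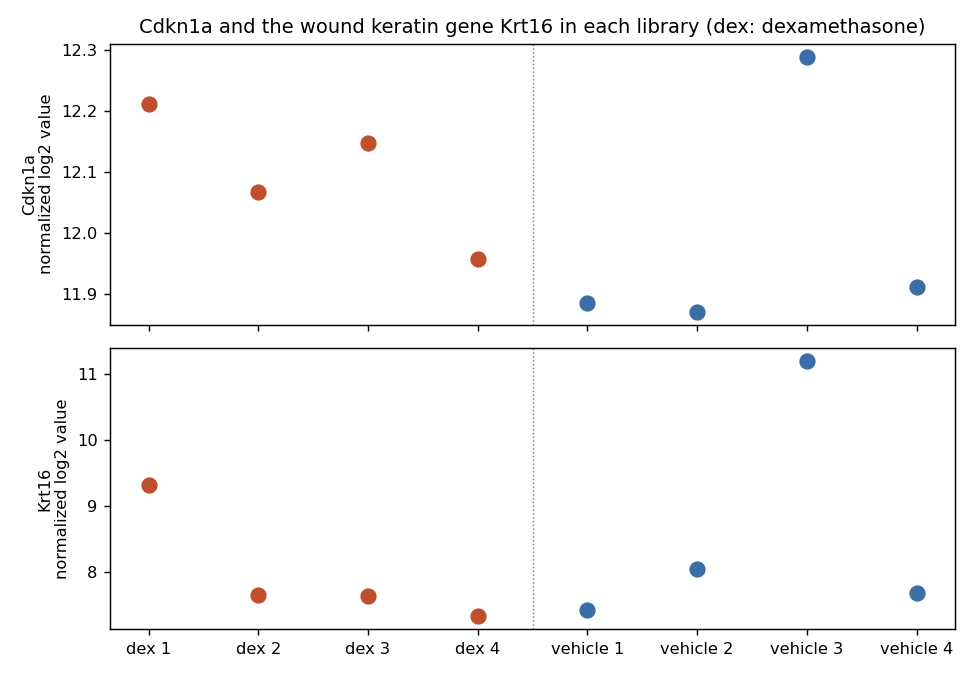
Normalized log2 values (y axes) of Cdkn1a (top) and of Krt16 (bottom) in the 4 dexamethasone libraries (left) and the 4 vehicle libraries (right), one point per library. Vehicle replicate 3 is highest in both panels, at 12.29 for Cdkn1a and 11.20 for Krt16, and dexamethasone replicate 1 is second in both.

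To compare levels between genes, the log2 of the exon length in kb was subtracted, since longer transcripts give more fragments. On this per-kb log2 scale the order in dexamethasone libraries ran from Ccnd1 (10.95 ± 0.08) through Cdkn1a (10.94 ± 0.11), Cdkn1b (10.05 ± 0.05), Ccnd2 (9.12 ± 0.05), Ccnd3 (8.90 ± 0.03), Cdkn1c (8.76 ± 0.06), Cdk2 (8.31 ± 0.05), Ccne2 (6.35 ± 0.04) and Ccne1 (6.31 ± 0.07) to E2f1 (4.64 ± 0.02) (SD, n = 4). Among neighbours in that order, the ranges of Ccnd1 and Cdkn1a overlapped, as did those of Ccne2 and Ccne1. In vehicle libraries the per-kb order ran from Ccnd1 (11.42 ± 0.05) through Cdkn1a (10.84 ± 0.20), Cdkn1b (9.98 ± 0.03), Ccnd2 (9.39 ± 0.06), Ccnd3 (8.73 ± 0.05), Cdk2 (8.46 ± 0.04), Cdkn1c (8.32 ± 0.06), Ccne1 (6.59 ± 0.06) and Ccne2 (6.53 ± 0.06) to E2f1 (5.02 ± 0.10) (SD, n = 4). There Ccne1 and Ccne2 were the only neighbours whose ranges overlapped, and Cdk2 stood above Cdkn1c, the reverse of their order in dexamethasone libraries.

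The genes whose pattern was most like that of each called gene were taken by Pearson correlation over the 8 libraries among rows with a mean of at least 5. These correlations include the difference between the groups and are given as descriptions. E2f1 was followed most closely by Dtl (r = 0.990), Mcm6 (0.988) and Ung (0.988), a ubiquitin ligase subunit gene, a replicative helicase gene and a DNA repair gene. Ccne2 was nearest to Topbp1 (0.978), a replication checkpoint gene, Prmt3 (0.977) and Kcnj2 (0.977), and Ccne1 to Tubb2b (0.992), G3bp1 (0.988) and Pla2g4a (0.986). Ccnd1 was nearest to Agpat5 (0.993), Dpy19l1 (0.991) and Cemip (0.987), and Ccnd2 to Fam84a (0.986), Anks1b (0.985) and Sept2 (0.984). Cdk2 was nearest to Cct8 (0.984), Rcn1 (0.984) and Cct3 (0.983), where Cct8 and Cct3 encode subunits of the same chaperonin. Among the risers, Cdkn1c was nearest to Mgst1 (0.997), Prodh (0.997) and Mtus1 (0.996), and Ccnd3 to Dnaja4 (0.994), Rab43 (0.980) and Herpud2 (0.980). None of the 10 genes was among the nearest 3 of another.

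Downstream of E2F, most replication genes fell. Of 45 tested genes known as E2F targets of DNA replication, 39 fell and 1 rose, with a median log2 difference of -0.25, where 6.03% of all tested rows were called lower. Mcm5, a subunit of the replicative helicase, had log2 values of 8.45, 8.51, 8.58 and 8.38 in the dexamethasone libraries against 9.10, 9.18, 9.16 and 9.32 in the vehicle libraries. No library of either group came near the other group, and the log2 difference was -0.71 (SE 0.05, adjusted p = 1.1e-05, limma). Its partner subunit genes Mcm3 and Mcm6 fell by 0.75 and 0.54 on the log2 scale, and Hells, a chromatin remodeller gene of replicating cells, by 0.55. The single riser was Rrm1, the large subunit gene of ribonucleotide reductase (0.14, adjusted p = 0.0449, limma), named after its value was seen. Its call was lost in 11 of the 18 alternatives, including the omission of vehicle replicate 1, 2 or 3 and of dexamethasone replicate 2, 3 or 4. Several of these genes, the Mcm genes among them, were known from earlier results of these data to fall.

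Mitotic genes were called in 2 of 20 tested (10%), near the 15.1% of all tested rows. Ube2c, a mitotic exit enzyme gene, rose (0.19, adjusted p = 0.02, limma) and Kif23, a cytokinesis kinesin gene, fell (-0.11, adjusted p = 0.0483, limma), and the median was 0.04. The Kif23 call was lost in 9 of the 18 alternatives, including the omission of vehicle replicate 1 or 4 or of any dexamethasone library. Mki67, the proliferation marker gene, was 11.24 ± 0.06 after dexamethasone and 11.21 ± 0.10 after vehicle (SD, n = 4 each) and was not called (adjusted p = 0.734, limma). It was named after its value was seen.

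**Figure D4:**
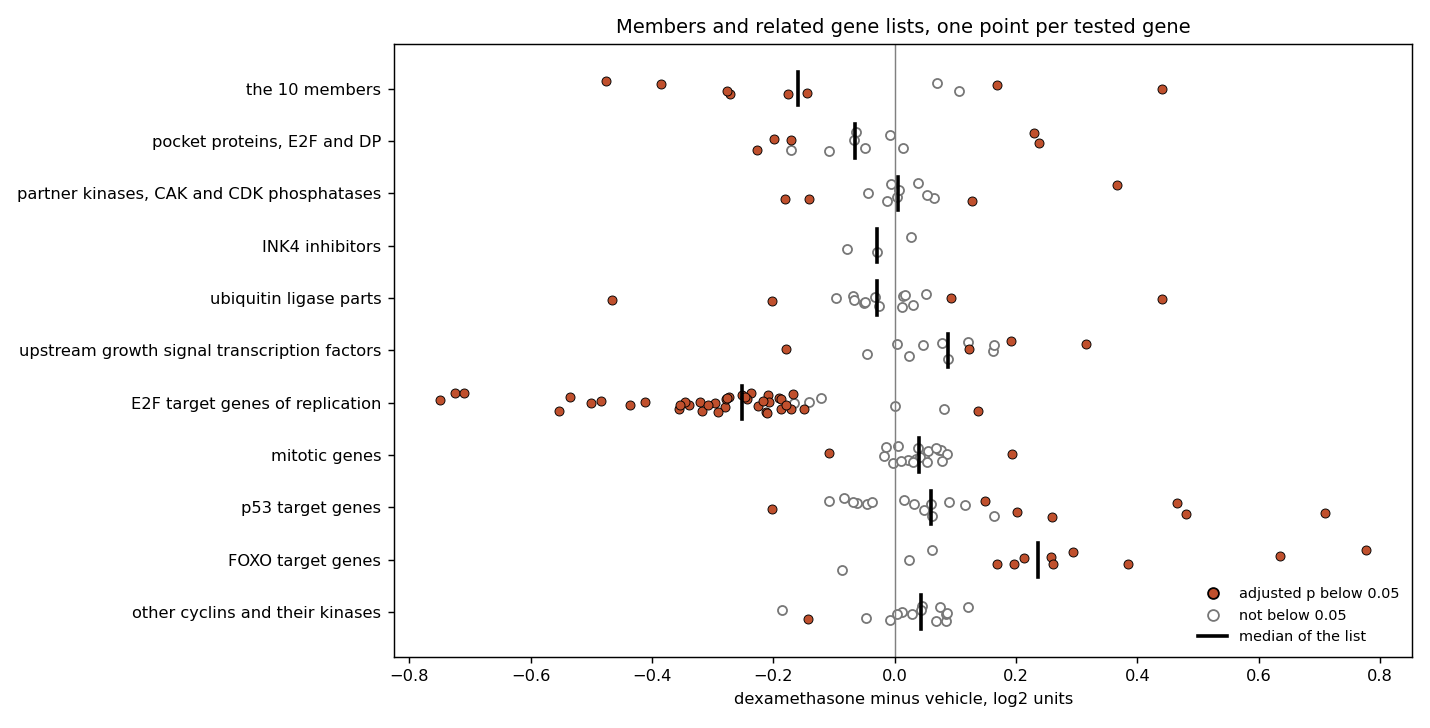
Dexamethasone minus vehicle difference in log2 units (x axis) of every tested gene, by list (rows); filled points have an adjusted p below 0.05, open points do not, and black bars are list medians. The E2F targets of replication lie mostly left of 0, with a median of -0.25, and the FOXO targets mostly right of it, with a median of 0.24.

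Among the regulators that sit between D cyclins and E2F, 5 of 12 tested pocket protein, E2F and DP genes were called (41.7%, against 15.1% of all tested rows), 2 higher and 3 lower (9.04% and 6.03% over all rows). The median log2 difference was -0.07. Within each of the pairs Rbl2 and Rbl1, and Tfdp2 and Tfdp1, the members went opposite ways. Rbl2, the gene of the pocket protein p130 that is characteristic of resting cells, had 11.13, 11.15, 11.19 and 11.20 in the dexamethasone libraries against 10.96, 10.98, 10.86 and 10.94 in the vehicle libraries. It rose by 0.23 (SE 0.03, adjusted p = 0.000786, limma), whereas Rbl1, the gene of p107, fell by 0.17 on the log2 scale (adjusted p = 0.0050). Tfdp2, a dimerization partner of E2F, rose by 0.24 (adjusted p = 0.00246), and Tfdp1, another partner, fell by 0.23 (adjusted p = 0.00194). E2f3, the other called gene, had -0.20 (adjusted p = 0.0251), and the retinoblastoma gene Rb1 had 0.01 (95% interval -0.0525 to 0.0780, adjusted p = 0.82, limma). Over the 18 alternatives 2 to 4 genes of this list were called lower. Rbl1 and Tfdp1 kept their calls in all 18, so the E2f3 call was not kept in every one. E2f3 and Rb1 were named after their values were seen.

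Partner kinases and their regulators were called in 4 of 12 tested genes (33.3%, against 15.1% of all tested rows), 2 higher and 2 lower (9.04% and 6.03% over all rows), with a median log2 difference of 0.01. Wee1, which encodes the kinase that holds CDK1 and CDK2 inactive, rose by 0.37 (SE 0.03, adjusted p = 1.57e-05, limma). Cdk4, a kinase of the D cyclins, fell by 0.18 on the log2 scale (adjusted p = 0.0122) and Ccnh, a cyclin of the CDK-activating kinase, by 0.14 (adjusted p = 0.017; 0.0524 without vehicle replicate 2). Cdc25b, a phosphatase gene that activates CDKs, rose by 0.13 (adjusted p = 0.0401), a call lost in 11 of the 18 alternatives, among them those without any single library but vehicle replicate 4. The other D-cyclin kinase gene, Cdk6, had -0.01 (95% interval -0.11 to 0.079, adjusted p = 0.879, limma) and was named after its value was seen. None of the 3 tested INK4 inhibitor genes was called by limma, and 0 had an unadjusted p below 0.05. Cdkn2b was 9.46 ± 0.05 after dexamethasone and 9.54 ± 0.04 after vehicle, and Cdkn2c was 7.88 ± 0.05 after dexamethasone and 7.91 ± 0.03 after vehicle (SD, n = 4 each). Cdkn2a had a mean below 3 and was not tested.

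Genes of the ubiquitin ligases that remove cyclins and CIP/KIP proteins were called in 4 of 16 (25%, against 15.1% of all tested rows). Of these, 2 were higher and 2 lower (9.04% and 6.03% over all rows), and the median log2 difference was -0.03. Fbxo31, whose protein is known to mark cyclin D1 for breakdown, had the largest rise at 0.44 (SE 0.04, adjusted p = 5.41e-05, limma). Dtl, which directs the breakdown of p21 and of the licensing factor CDT1 in S phase, stood at 7.30, 7.36, 7.38 and 7.34 in the dexamethasone libraries against 7.76, 7.77, 7.77 and 7.94 in the vehicle libraries. The groups were far apart relative to their spread, with a log2 difference of -0.47 (adjusted p = 6.08e-05, limma). Skp2, the p27-recognition subunit gene, had -0.20 (adjusted p = 0.0258; lost in 6 of the 18 alternatives, at 0.0521 to 0.0756: on omitting replicate 2 or 4 of either group, with the replicate block and with no filter on low values). Ddb1, an adaptor gene of the ligase of Dtl, rose by 0.09 (adjusted p = 0.0474), a call lost in 11 of 18 alternatives, among them those without any single library but dexamethasone replicate 1.

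Upstream transcription factor genes were called in 4 of 13 (30.8%, against 15.1% of all tested rows), 3 higher and 1 lower (9.04% and 6.03% over all rows), with a median log2 difference of 0.09. Fos, an immediate-early gene, rose by 0.32 (adjusted p = 0.00387, limma), Foxo4 by 0.19 (adjusted p = 0.00654) and Foxo1 by 0.12 (adjusted p = 0.0238), while Mybl2, itself counted among the E2F targets as well, had -0.18 (adjusted p = 0.00807). The Foxo1 call was lost on omitting replicate 2 or 4 of the vehicle group or 3 or 4 of the dexamethasone group, and with the replicate block, at adjusted p of 0.0533 to 0.0833. Myc, the classical inducer of D cyclins, was 9.44 ± 0.20 after dexamethasone and 9.48 ± 0.24 after vehicle (SD, n = 4 each), with an interval of -0.30 to 0.21 around a log2 difference of -0.05. It was named after its value was seen.

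Targets of FOXO factors, which are known to drive Cdkn1b in other cells, were called higher in 9 of 12 tested genes and lower in 0 by limma (also 0 at an unadjusted p below 0.05), with a median log2 difference of 0.24, where 9.04% of all tested rows were called higher. Txnip, an inhibitor of glucose uptake and thioredoxin, rose by 0.78, Klf15 by 0.63, Irs2 by 0.38 and Insr by 0.21 (adjusted p of 5.42e-06 to 0.000777, limma). Klf15 is also a known glucocorticoid receptor target, and the other genes of the list were not sorted by whether they are too. Whether any called gene of this list, Klf15 included, answered to FOXO factors or to the receptor was not tested. The count is therefore not a measure of FOXO activity. Targets of p53, the group to which Cdkn1a belongs, were called in 7 of 21 tested genes (33.3%, against 15.1% of all tested rows), 6 higher and 1 lower (9.04% and 6.03% over all rows), with a median of 0.06. Trp53inp1 rose by 0.71, Sesn1 by 0.48, Plk3 by 0.46 and Ccng1 by 0.26 (adjusted p of 1.04e-05 to 0.012, limma). The Plk3 call was lost with robust moderation (adjusted p = 0.0553). Over the 18 alternatives 4 to 8 of the p53 targets were called higher, 4 of them with no filter on low values. The faller, named after its value was seen, was Aen (-0.20). The direct p53 regulator gene Mdm2 had 0.09 (adjusted p = 0.0878, limma) and was also named after its value was seen. Among 15 other cyclin and kinase genes, 6.67% were called, against 15.1% of all tested rows. Ccnc, a cyclin of the Mediator complex, was called lower (-0.14, adjusted p = 0.00913, limma), and 0 were called higher. At an unadjusted p below 0.05 (limma), 3 had a higher value and 2, Ccnc included, a lower value. The median log2 difference was 0.04.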

How the data were processed

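RNA of 8 cornea pools was measured by paired-end sequencing. The submitters' processing notes name mm9 as the build and list DESeq2, HTSeq and Bowtie2 as tools. Tool versions, strandedness and which log transformation was applied were not given in the sources used here. Values deposited by the authors are normalized log2 levels per gene, not counts, so the depth behind each value is unknown, no counting interval is given, and overlapping genes may share reads. No column of per-sample values was left unused. Replicates are separate pools, and since nothing says that they came from different mice, p-values measure the spread between these pools.

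The values were fitted as deposited with limma 3.58.1 in R 4.3.3 (group term, trend, two-sided), with Benjamini-Hochberg adjustment over 14715 rows with a mean of at least 3. The fit was checked on simulated data. Within-library pair differences were tested by exact permutation over 70 splits (Python 3.11.15, NumPy 2.4.6, pandas 2.3.3). Coordinates and exon lengths were read from the GENCODE vM1 annotation (NCBIM37, the same assembly as mm9). The genes, the 10 lists with the 3 check genes, and the markers were chosen with earlier results of these data known. Part of the endothelial marker list is not reported here. Named genes were the 10 genes, up to 4 called genes per list by adjusted p (or 2 by level where none was called), 3 nearest genes per called gene, and 3 receptor targets; others are marked. Alternatives were a replicate block, other filters, a pseudocount of 8, quantile normalization, median centring, other moderation, library weights and leaving out libraries.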

Additional observations from a re-analysis of the deposited data

Results flagged for a closer look

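For the 46 genes named by rule other than by likeness of pattern, 92 sets of 4 libraries were searched for an end library set apart from the next one by more of the range than Dixon's 95% critical value allows. Chance flags about 1 in 20 sets, or 4.6 of 92, and 6 were found. Ccne1 had dexamethasone replicate 2 highest (gap over range 0.951), at 7.83 against 7.69 in each of the other 3. Cdkn1a had vehicle replicate 3 highest (0.903), at 12.29 against 11.87 to 11.91. Rbl1 had dexamethasone replicate 4 highest (0.864), Plk3 had dexamethasone replicate 1 highest (0.876), Dtl had vehicle replicate 4 highest (0.938), and Ube2c had vehicle replicate 2 lowest (0.911).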

How the results depend on the processing

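Across 18 alternatives the number of the 10 genes called ran from 7 to 9, and Ccnd1, Ccnd2, Ccnd3, Ccne1, Ccne2, E2f1 and Cdkn1c kept direction and call in all 18. The weakest was Ccne2, with an adjusted p up to 0.0497 (limma). Same-numbered libraries did not deviate together in every pair (r of -0.31, 0.19, -0.14 and 0.14). Dexamethasone replicate 1 and vehicle replicate 3 had r of 0.65. These correlations cannot show whether same-numbered libraries shared a batch or day. With the replicate block 8 of the 10 genes and 1675 rows were called. On leaving out single libraries 1411 (without vehicle replicate 4) to 2131 rows were called, against 2218. Without both dexamethasone replicate 1 and vehicle replicate 3 the count was 2202. The taking of the mean of several loci was not run, since each gene had 1, and count tests were not run, since the values are not counts.

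Leaving out single libraries gave 1 to 2 higher and 1 to 2 lower for partner kinases (2 and 2 with all), 1 to 2 higher and 1 to 2 lower for ubiquitin ligase parts (2 and 2), 0 to 1 higher for E2F targets (1), 0 to 1 lower for mitotic genes (1), 0 to 1 lower for p53 targets (1), and 0 to 1 higher and 1 to 2 lower for other cyclins (0 and 1). With the replicate block, 1 partner kinase gene was higher, 1 ubiquitin ligase gene higher and 1 lower, and the E2F targets higher, mitotic genes lower and p53 targets lower were 0. With no filter, the higher partner kinases and lower ligase genes were 1, and the higher E2F targets and lower mitotic genes 0. Higher ligase genes were 1 with quantile normalization, median centring or robust moderation. Quantile normalization gave 0 higher E2F targets, 2 lower p53 targets and 1 higher among other cyclins, median centring 0 lower mitotic genes, and limma without trend 0 higher E2F targets and 1 higher among other cyclins. Library weights gave 1 higher partner kinase, 0 higher E2F targets and 5 higher upstream factors. Without dexamethasone replicate 1 and vehicle replicate 3 there were 1 higher partner kinase, 5 higher upstream factors and 1 higher among other cyclins. The 39 lower E2F targets ran from 38 to 42.

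Under quantile normalization the Ccnd1 minus Ccnd2 shift (-0.22), Ccnd1 minus Ccnd3 shift (-0.68), Ccnd2 minus Ccnd3 shift (-0.45), Cdkn1a minus Cdkn1c shift (-0.36) and Cdkn1b minus Cdkn1c shift (-0.40) passed (adjusted p = 0.04, exact permutation). All but Cdkn1a minus Cdkn1c already had the smallest possible exact permutation p, 0.0286, without it. Their adjusted p fell only because that pair reached the same p, so passing is not stronger evidence for them. The Cdkn1a minus Cdkn1b shift ran from -0.0199 to 0.15 on leaving out single libraries, with its sign turned without dexamethasone replicate 1 (-0.0199) or vehicle replicate 1 (-0.00590) or 2 (-0.00982). The causes were not tested.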
